A study of Mus musculus with 12 samples.

Results

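The 10 genes described here encode histone H3.3 and proteins that carry histone H3 to DNA. They were taken as named genes of the RefSeq annotation, with the estimated counts of their transcripts summed by gene symbol, and all 10 were found among the 24450 genes of the quantification. H3f3a and H3f3b encode H3.3. Atrx and Daxx, Hira with Ubn1 and Cabin1, Asf1a and Asf1b, and Chaf1a encode chaperones or their partners.

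H3.3 is the replacement form of histone H3 and can be put into chromatin outside DNA replication. HIRA, together with UBN1 and CABIN1, places it at active genes and, in the mouse zygote, in the sperm-derived genome after protamines are removed, while DAXX with the ATPase ATRX places it at telomeres and pericentromeric repeats. ASF1A and ASF1B hold newly made H3-H4 dimers and pass them on, and CHAF1A is the large subunit of CAF-1, which loads the replication-dependent H3 proteins behind the replication fork.

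The study asked what LSM1 does in mouse zygotes. With its partner LSM proteins LSM1 forms a cytoplasmic ring on deadenylated messages and promotes their decapping and decay. RNA-seq was made of zygotes given siRNA against Lsm1 (Lsm1_KD) and of zygotes given scramble siRNA (Ctrl). RIP-seq, in which RNA bound to a tagged protein is pulled down and sequenced, used zygotes given Lsm1_3XFlag mRNA, with anti-FLAG pull-down (FLAG_IP) and lysate (FLAG_Input), and a control labelled as Lsm1 mRNA without the tag, with the same pull-down (Ctrl_IP) and lysate (Ctrl_Input). Per the labels, all zygotes came from B6D2F1 females of 8 to 10 weeks and were collected 18 to 20 h after hCG. The methods of the study give a younger age range and collection at 20 h. Each of the 6 groups has 2 libraries of pooled embryos. The labels place the injection in zygotes and the scheme of the study also shows injection into GV oocytes, and which one gave the RNA-seq is not stated. The control of the RIP-seq is titled IgG in the sample names, and it held no excess of Lsm1 RNA, so what was injected there is in doubt. The study calls the libraries of a group biologically independent samples, and the labels do not say what they share.

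Each RNA-seq library summed to between 4636492 and 13968315 estimated counts and each RIP-seq library to between 9865512 and 31586450, and the 10 genes took 0.214% to 0.433% of them. All 10 oocyte and zygote markers (the Zp genes, Gdf9, Bmp15 and others) were above 0 in every library. Of 10 cumulus and granulosa cell markers, 5 to 7 were at 0 in the RNA-seq and 0 to 3 in the RIP-seq, and their summed level reached at most 28.1 TPM. The 7 sperm markers summed to 28.1 and 39.9 TPM in Lsm1_KD and to 11.6 and 10.6 TPM in Ctrl, with 5 of 7 at 0 in each of these libraries, and their part in the knockdown results was not tested. Lsm1 itself had 63.6 and 71.0 CPM (counts scaled to library size with TMM factors) in Lsm1_KD, against 143 and 147 CPM in Ctrl, a log2 fold change of -1.10 (SE 0.22, adjusted p = 0.012, edgeR). FLAG_IP replicate 1 differed from the rest of the RIP-seq: repeats made up 12.7% of it, against 0.147% to 2.63% of the other libraries, and a TMM scaling factor of 1.87 against 0.872 to 1.02. Lsm1 RNA, the injected message, was at 5993 and 139288 CPM in FLAG_IP, against 10838 and 16749 CPM in FLAG_Input. After TMM scaling it was thus above the lysate of the same number only in replicate 2, whereas by library total replicate 1 was also above it, with 11125 CPM against 9931 CPM.

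H3f3a and H3f3b share a protein but not a message, which is what allows their reads to be told apart. Their RefSeq coding regions are 411 bases each and differ at 95 bases (76.9% identical), yet encode identical proteins of 136 residues including the initiator methionine. Against H3c1, a replication-dependent H3.1 gene, both differ at 5 residues, written with the H3c1 residue first and counted after the initiator methionine: A31S, S87A, V89I, M90G and C96S. Residues 87 to 90 hold the motif that the HIRA complex and DAXX read. Residue 31 is a serine that sets H3.3 apart from the replication-dependent forms. The coding stretches around both sites are shown because they carry the identity of the variant and because they show how far the 2 messages differ. The capitals mark codons 87 to 90 in codons 84 to 93, and codon 31 in codons 27 to 36, from GRCm38.p6 (RefSeq), all on the minus strand.
H3f3a codons 84 to 93, chr1:180810117-180810146, exon 3 of 4: ttccagagtGCAGCTATTGGTgctttgcag
H3f3b codons 84 to 93, chr11:116023625-116023654, exon 3 of 4: tttcaaagtGCAGCCATCGGTgcccttcag
H3c1 codons 84 to 93, chr13:23762072-23762101, exon 1 of 1: ttccagagcTCGGCCGTCATGgctctgcag
H3f3a codons 27 to 36, chr1:180811816-180811845, exon 2 of 4: aagagtgcgcccTCTactggaggggtgaag
H3f3b codons 27 to 36, chr11:116023899-116023928, exon 2 of 4: aaaagcgcgcccTCTaccggcggggtgaag
H3c1 codons 27 to 36, chr13:23762243-23762272, exon 1 of 1: aagagcgccccgGCCaccggcggcgtgaag

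The siRNA is also shown, since it defines the Lsm1_KD group. Its target lies in the coding part of Lsm1, on the plus strand, and joins exons 2 and 3 of 4, so that the genomic interval includes an intron.
Lsm1 siRNA target, chr8:25792216-25793685: gatcaatttgctaacttag

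H3f3a counts are the less certain of the pair. In GENCODE, 43 other genes have a transcript that matches H3f3a over 150 bases or more at 90% identity or more, most of them processed copies, and only Gm12657 (98.5% over 411 bases) and Smpd4 (96.5% over 173 bases) are among the genes quantified here. Reads of a copy that was not quantified could be counted as H3f3a. Gm12657 had 3.44 and 5.88 TPM in Lsm1_KD and 5.33 and 3.37 TPM in Ctrl, far below H3f3a. In the RIP-seq it had 16.7 TPM in FLAG_IP replicate 1 and at most 2.97 TPM elsewhere. H3f3b had 4 such matches, none quantified. No quantified transcript of another gene overlaps an exon of the 10 genes, but models of Mcm9 and Ubxn6 that were not quantified share 960 bases with Asf1a and 624 bases with Chaf1a. A transcript of Gm28539 that was not quantified matches Hira at 100% over 2416 bases, so Hira counts are uncertain too. The Mcm9 and Ubxn6 models lie on the opposite strand, and the strand setting of the quantification is not given in the sources used here.

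The genes lie on chromosomes 1 (H3f3a), 11 (H3f3b), X (Atrx), 17 (Daxx and Chaf1a), 16 (Hira and Ubn1), 10 (Cabin1 and Asf1a) and 8 (Asf1b). Their transcripts span 1086 nt for H3f3a to 10244 nt for Atrx, so levels between genes are compared in TPM, which divides by length. Zygote RNA-seq was rich in H3f3b. Its message had 1536 and 1412 TPM in Lsm1_KD and 1235 and 1180 TPM in Ctrl, above 99% of expressed genes in both groups (percentiles 99.4 and 99.3). H3f3a had 231 and 331 TPM in Lsm1_KD and 268 and 187 TPM in Ctrl. H3f3b thus made up 86.9% and 81.0% of the summed H3.3 TPM in Lsm1_KD and 82.2% and 86.3% in Ctrl, and these shares overlap.

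**Figure D1:**
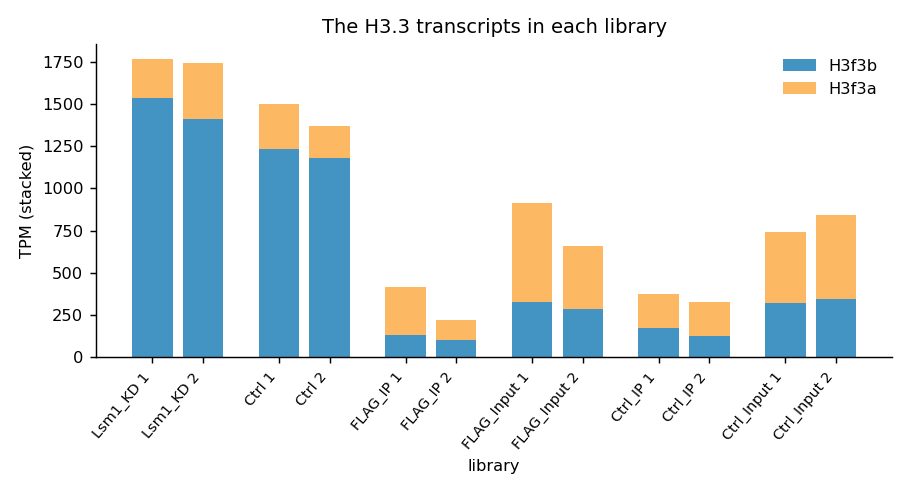
TPM of H3f3b (blue) and H3f3a (orange), stacked, in each of the 12 libraries. The summed H3.3 level is 1743 and 1768 TPM in Lsm1_KD and 1367 and 1503 TPM in Ctrl, and H3f3b is the larger part in the RNA-seq libraries and the smaller part in the RIP-seq libraries.

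Among the chaperones, Asf1b was the most abundant message in the RNA-seq and Hira the least. Asf1b averaged 422 ± 3.59 TPM in Lsm1_KD and 432 ± 9.94 TPM in Ctrl (SD, n = 2 each). Atrx averaged 195 ± 27.2 TPM in Lsm1_KD and 377 ± 97.1 TPM in Ctrl. Asf1a, Chaf1a and Ubn1 lay between 102 and 169 TPM on average in both groups. Cabin1 and Daxx lay between 29.9 and 47.2 TPM on average. Hira averaged 3.94 ± 0.494 TPM in Lsm1_KD, at percentile 44.6 of expressed genes, and 11.1 ± 1.45 TPM in Ctrl, at percentile 58.5. In the Ctrl order of H3f3b, Asf1b, Atrx, H3f3a, Asf1a, Chaf1a, Ubn1, Cabin1, Daxx and Hira, the libraries of Asf1b and Atrx, of H3f3a and Asf1a, of Asf1a and Chaf1a, and of Cabin1 and Daxx overlapped, so those neighbours cannot be ordered. In the Lsm1_KD order of H3f3b, Asf1b, H3f3a, Atrx, Asf1a, Ubn1, Chaf1a, Daxx, Cabin1 and Hira, only Ubn1 with Chaf1a and Daxx with Cabin1 overlapped.

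The order was another one in the RIP-seq lysates. H3f3a led, with 584 and 372 TPM in FLAG_Input and 421 and 498 TPM in Ctrl_Input. H3f3b had 330 and 286 TPM in FLAG_Input and 321 and 344 TPM in Ctrl_Input, and made up 36.1% to 43.4% of the H3.3 TPM across these 4 libraries. Chaf1a averaged 303 ± 20.4 TPM in FLAG_Input and 379 ± 108 TPM in Ctrl_Input. Asf1b averaged 68.1 ± 13.1 TPM in FLAG_Input and 68.3 ± 3.32 TPM in Ctrl_Input. Hira was again lowest, at 8.20 ± 0.117 TPM in FLAG_Input and 8.64 ± 1.81 TPM in Ctrl_Input. The labels and the methods name different kits for the RNA-seq (a ribosomal RNA depletion kit in the labels, amplified cDNA in the methods), and both differ from the kit of the RIP-seq. The kit and the experiment cannot be told apart, so no test was made between them.

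Daxx and Ubn1 have more than 1 transcript in the quantification, and the other 8 genes have 1. Of the 4 Daxx transcripts, NM_007829 carried 58.8% to 100% of the TPM of the gene over the 12 libraries. NM_001199733 was at 0 in Lsm1_KD replicate 1 and carried 31.9% in replicate 2, which shows how unevenly reads were divided among isoforms of a gene of this depth. Of the 2 Ubn1 transcripts, NM_001356320 carried 75.6% and 76.9% in Lsm1_KD and 72.1% and 72.4% in Ctrl. In the pull-down its share was 54.5% and 72.2% in FLAG_IP and 80.1% and 74.5% in Ctrl_IP. No test was made on these shares.

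The first comparison asked whether these messages differ when Lsm1 is knocked down. None of the 10 genes was called in Lsm1_KD against Ctrl zygotes at an adjusted p under 0.05 (edgeR quasi-likelihood test with TMM scaling, Benjamini-Hochberg adjustment over 11335 genes and repeats), where 11% of everything tested was called (6.45% as higher, 4.56% as lower). An unadjusted p under 0.05 was found for 5 of the 10, 3 of them higher and 2 lower, against 27.1% of everything tested (14.2% higher, 12.9% lower). DESeq2 called 3 of the 10 (H3f3b higher, Atrx and Hira lower), against 15.5% (8.45% higher, 7.08% lower). In 5 genes both Lsm1_KD libraries were above both Ctrl libraries, against 29.3% of everything tested, and in 2 genes both were below, against 28.6%. These counts were 3 and 3 in CPM by library total and 2 and 4 in TPM. The shares over everything tested were not computed on these scales. The median log2 fold change of the 10 was 0.25, with 0.01 over all tested. With 2 against 2 libraries an exact two-sided permutation test of a single gene cannot go below p = 0.333. In bulk RNA of pooled zygotes, a change in every zygote and a larger change in some of them cannot be told apart.

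The H3.3 genes both had positive values. H3f3b had 1462 and 1417 CPM in Lsm1_KD, against 965 and 968 CPM in Ctrl. The groups did not overlap, and the replicates of each group lay within a few percent of each other. The log2 fold change was 0.57 (SE 0.18, 95% interval 0.18 to 0.97, adjusted p = 0.066), and DESeq2 gave an adjusted p of 0.026. H3f3a had 109.7 and 165 CPM in Lsm1_KD, against 104 and 76.8 CPM in Ctrl. These groups were apart by a narrow margin, and the log2 fold change was 0.61 (SE 0.26, 95% interval 0.03 to 1.19, adjusted p = 0.17). With 1 library left out it lay between 0.27 (without Lsm1_KD replicate 2) and 0.85 (without Lsm1_KD replicate 1). By library total the groups overlapped, with 106 and 162 CPM in Lsm1_KD against 110.4 and 75.5 CPM in Ctrl.

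**Figure D2:**
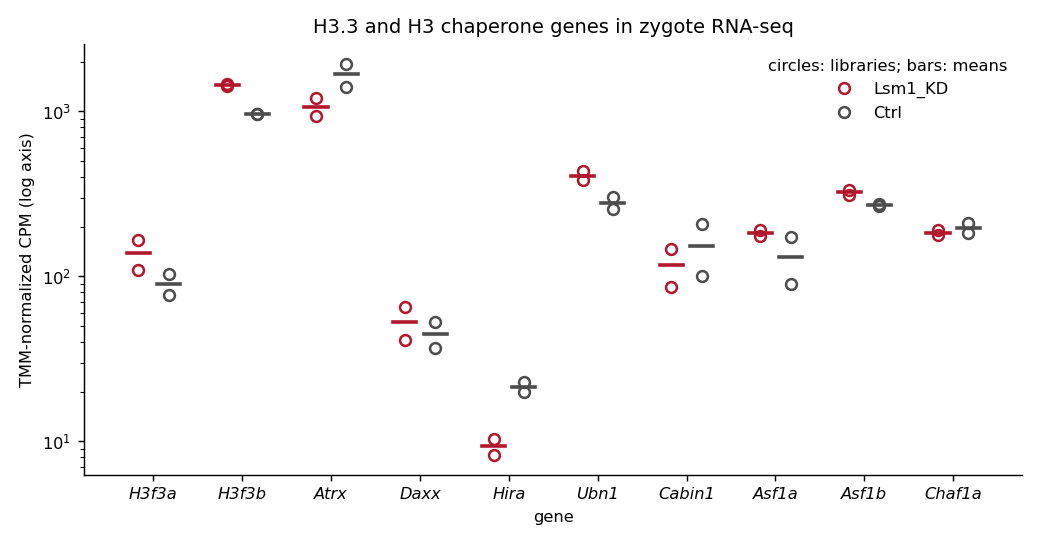
TMM-normalized CPM (log axis) of the 10 genes in the RNA-seq, with Lsm1_KD (red) left of Ctrl (grey), circles for libraries and bars for group means. H3f3b, H3f3a, Ubn1, Asf1a and Asf1b have both Lsm1_KD libraries above both Ctrl libraries on this scale, and Atrx and Hira have both below.

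Atrx and Daxx, the partners of pericentromeric H3.3 loading, had values of opposite sign. Atrx had 934 and 1202 CPM in Lsm1_KD, against 1946 and 1405 CPM in Ctrl. Both Lsm1_KD libraries were below both Ctrl libraries, and each group spread widely. The log2 fold change was -0.65 (SE 0.22, 95% interval -1.14 to -0.16, adjusted p = 0.086 by edgeR and 0.029 by DESeq2). It was -0.89 (adjusted p = 0.014) without Ctrl replicate 2 and -0.41 (adjusted p = 0.30) without Ctrl replicate 1. Daxx had 40.9 and 64.9 CPM in Lsm1_KD, against 52.5 and 36.8 CPM in Ctrl. These overlapped, with a log2 fold change of 0.25 (SE 0.31, 95% interval -0.43 to 0.93, adjusted p = 0.66), and the sign was negative on the TPM scale (-0.07) and with single transcripts (-0.33).

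In the HIRA complex, Hira and Ubn1 also pointed in opposite directions. Hira, the scaffold of the complex, had 8.23 and 10.4 CPM in Lsm1_KD, against 22.8 and 19.8 CPM in Ctrl. The groups were well apart at this low level, with the largest difference of the 10 genes, a log2 fold change of -1.19 (SE 0.39, 95% interval -2.05 to -0.33, adjusted p = 0.076 by edgeR and 0.049 by DESeq2). Ubn1, which binds H3.3 within the complex, had 433 and 382 CPM in Lsm1_KD, against 256 and 300.2 CPM in Ctrl. The groups did not overlap, and the log2 fold change was 0.55 (SE 0.19, 95% interval 0.12 to 0.98, adjusted p = 0.095). Cabin1, the third subunit, had 147 and 86.7 CPM in Lsm1_KD, against 100.5 and 206 CPM in Ctrl. In each group its replicates differed by more than the group means did (117 CPM in Lsm1_KD and 153 CPM in Ctrl). The log2 fold change was -0.39 (SE 0.35, adjusted p = 0.51 by edgeR).

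The chaperones of newly made H3-H4 gave smaller values. Asf1a had 176 and 189 CPM in Lsm1_KD, against 173 and 89.8 CPM in Ctrl. Ctrl replicate 2 was the low one of the 4 libraries. The log2 fold change was 0.47 (SE 0.29, adjusted p = 0.32), with 1.01 (adjusted p = 0.028) without Ctrl replicate 1 and 0.056 (adjusted p = 0.94) without Ctrl replicate 2. By library total the groups overlapped. Asf1b had 312 and 333 CPM in Lsm1_KD, against 268 and 273 CPM in Ctrl. The groups were apart with little spread, and the log2 fold change was 0.25 (SE 0.19, 95% interval -0.16 to 0.66, adjusted p = 0.42), or -0.04 on the TPM scale, where both Lsm1_KD libraries were below both Ctrl libraries. Chaf1a had 189.6 and 178 CPM in Lsm1_KD, against 182 and 210.2 CPM in Ctrl. These overlapped, with a log2 fold change of -0.09 (SE 0.20, 95% interval -0.54 to 0.35, adjusted p = 0.81).

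Transcript length moved with these values. Across the 11335 genes and repeats the log2 fold change of Lsm1_KD over Ctrl had a Spearman rho of -0.18 with length, given as a description since the points share the same 4 libraries. With a length trend taken out of each library, the log2 fold change was 0.19 for H3f3a, the shortest of the 10, and -0.45 for Atrx, the longest, with adjusted p of 0.66 and 0.29. H3f3b (0.53), Hira (-1.13) and Ubn1 (0.66) changed less, with adjusted p of 0.094, 0.093 and 0.051. On the scale of log2(TPM + 1), tested by limma, the median of all tested was -0.23 in place of 0.01 and the median of the 10 was -0.05, which is 0.18 above that of all. On that scale 424 genes and repeats were called higher and 848 lower, in place of 731 and 517, and Atrx was the single one of the 10 called (log2 fold change -0.93, adjusted p = 0.045).

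**Figure D3:**
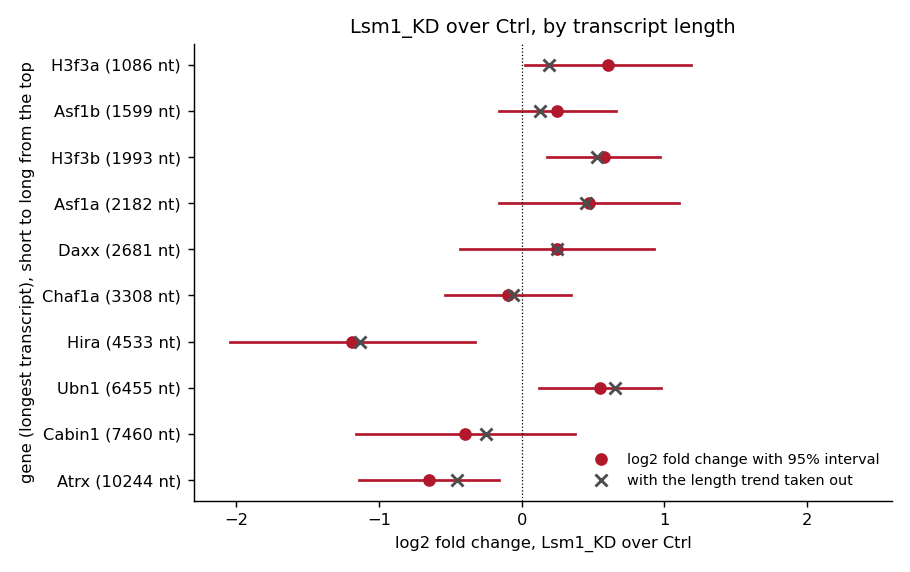
Log2 fold change of Lsm1_KD over Ctrl for the 10 genes, ordered by transcript length, with the 95% interval from edgeR (red) and the value with the length trend taken out (grey cross). The cross of H3f3a lies nearer 0 (0.19 against 0.61) and so does that of Atrx (-0.45 against -0.65), while Hira keeps a value below -1 in both.

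Of 26 other genes for histone chaperones and H3 or H4 handling factors, 6 rose and 1 fell in Lsm1_KD, against 6.45% and 4.56% of everything tested, and their median log2 fold change was 0.45, with 0.01 over all tested. The 4 with the smallest adjusted p were Rbbp4, Npm2, Hat1 and Npm3. Rbbp4, a histone-binding protein that joins CHAF1A in CAF-1 and is also part of other complexes, rose to 122 ± 3.48 CPM in Lsm1_KD, against 20.2 ± 0.267 CPM in Ctrl (SD, n = 2 each, log2 fold change 2.59, SE 0.24, adjusted p = 0.0010). Npm2, the oocyte nucleoplasmin that helps unpack sperm chromatin, rose to 866 ± 143 CPM in Lsm1_KD, against 379 ± 10.6 CPM in Ctrl (log2 fold change 1.19, SE 0.20, adjusted p = 0.0058). Hat1, which acetylates new histone H4, fell to 29.9 ± 5.24 CPM in Lsm1_KD, against 68.6 ± 8.00 CPM in Ctrl (log2 fold change -1.20, SE 0.27, adjusted p = 0.021). Npm3, another nucleoplasmin family gene, rose to 16.8 ± 6.20 CPM in Lsm1_KD, against 3.94 ± 0.902 CPM in Ctrl (log2 fold change 2.09, SE 0.50, adjusted p = 0.026). Npm2 was also moved by length, with a log2 fold change of 0.67 once the trend was taken out. Hat1 lost its call in 4 of 12 alternatives and Npm3 in 5 of 12, and with single transcripts as features neither Rbbp4 nor Npm2 nor any other gene passed.

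The second comparison asked whether tagged Lsm1 mRNA changed these messages in the lysate. Lsm1 itself was at 9741 and 14980 CPM in FLAG_Input, against 16.2 and 16.4 CPM in Ctrl_Input, and was the 1 of 14592 genes and repeats called by edgeR (0.00685%). None of the 10 genes was called by edgeR or by DESeq2, which called 19 in all (0.13%). None had an unadjusted p under 0.05 either, against 3.94% of everything tested with edgeR (2.75% higher, 1.19% lower) and 2.69% with DESeq2. Their log2 fold changes lay between -0.34 (Daxx) and 0.11 (H3f3a), with every 95% interval within -0.74 to 0.47. H3f3a had 386 and 289 CPM in FLAG_Input, against 313 and 309.9 CPM in Ctrl_Input, and H3f3b had 444 and 448 CPM, against 482 and 438 CPM. These groups overlapped. Both FLAG_Input libraries were below both Ctrl_Input libraries for 2 genes, against 16.8% of everything tested. These were Atrx, with 722 and 772 CPM in FLAG_Input against 789 and 899 CPM in Ctrl_Input, and Daxx, with 43.9 and 58.5 CPM against 60.1 and 69.5 CPM. Without FLAG_Input replicate 2, edgeR called Daxx (-0.58, adjusted p = 0.0057) and Chaf1a (-0.43, adjusted p = 0.045) lower, together with 1831 genes and repeats in all.

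The third comparison asked how these messages were represented in the FLAG pull-down relative to its lysate. H3f3a and Asf1b fell in FLAG_IP against FLAG_Input and none of the 10 rose, while 5.48% of everything tested was called lower and 21% higher (26.4% together) over 18972 genes and repeats. An unadjusted p under 0.05 was found for 4 of the 10, all lower, against 46.5% of everything tested (32.5% higher, 14.1% lower). H3f3a had 132 and 152 CPM in FLAG_IP, against 429 and 323 CPM in FLAG_Input. The groups were well apart, and the log2 fold change was -1.41 (SE 0.48, 95% interval -2.45 to -0.36, adjusted p = 0.049). Asf1b had 24.0 and 47.5 CPM in FLAG_IP, against 90.2 and 80.4 CPM in FLAG_Input, a log2 fold change of -1.26 (SE 0.38, 95% interval -2.08 to -0.43, adjusted p = 0.034). Both pull-down libraries were below both lysates for 6 of the 10, against 30.2% of everything tested, and above both lysates for none, against 42.1%. Over all tested the median log2 fold change was 0.49, and all 10 genes lay below it, with a median of -0.90, or -1.39 relative to that of all.

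Both calls depended on the libraries and the settings used. Of 16 alternatives, H3f3a kept its call in 5 and Asf1b in 8. Over all 16 the log2 fold change stayed below 0, at -2.10 to -1.18 for H3f3a and -1.83 to -0.88 for Asf1b. Neither gene was called when any 1 of the FLAG_Input, Ctrl_IP or Ctrl_Input libraries was left out, or when the 4 libraries were fitted alone (adjusted p = 0.21 for H3f3a and 0.091 for Asf1b). With the replicate number as a block, Asf1b was called (adjusted p = 0.014) and H3f3a was not (adjusted p = 0.095). The methods take the Input from the lysate that is pulled down, but no source says that the numbers mark a shared lysate. DESeq2 called 5 genes lower, these and H3f3b, Asf1a and Chaf1a, against 11.6% of everything tested called lower and 28.5% higher (40.1% together), and its unadjusted p was under 0.05 for the same 5, against 50.9%. The split of calls over all genes moved with the scale. There were 3975 higher and 1040 lower, in place of which limma on log2(TPM + 1) called 489 and 2331, around a median of all of 0.36, and the fit with the length trend taken out called 3189 and 2721, around a median of -0.19. The median of the 10 relative to these was -1.27 and -1.20.

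The other H3.3 gene and the other chaperones had the same sign except for Atrx. H3f3b had 124 and 260.5 CPM in FLAG_IP, against 494 and 501 CPM in FLAG_Input (log2 fold change -1.37, SE 0.57, adjusted p = 0.082). The pull-down libraries differed from each other by more than the lysates did. Asf1a had 48.0 and 115 CPM in FLAG_IP, against 192 and 164 CPM in FLAG_Input (log2 fold change -1.13, SE 0.48, adjusted p = 0.091). Chaf1a had 201 and 571 CPM in FLAG_IP, against 749.6 and 962 CPM in FLAG_Input (log2 fold change -1.15, SE 0.69, adjusted p = 0.19). For Cabin1 the log2 fold change was -0.66, for Daxx -0.52, for Ubn1 -0.49 and for Hira -0.26, with adjusted p of 0.28 to 0.53. Atrx had 354 and 1532 CPM in FLAG_IP, against 804 and 863 CPM in FLAG_Input. Its pull-down libraries lay on opposite sides of the lysates, and the log2 fold change was 0.18 (SE 0.78, adjusted p = 0.86), with a negative sign on the TPM scale (-0.10) and with the length trend taken out (-0.24).

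In TMM-scaled CPM, FLAG_IP replicate 1 was the lower of the pull-down pair for every one of the 10 genes. This order rested on the TMM factor. In CPM by library total replicate 1 was the higher for 5 of the 10, and in TPM for 6 of the 10 (H3f3a, H3f3b, Hira, Cabin1, Asf1a and Asf1b), with H3f3a at 284 TPM in replicate 1 and 119 TPM in replicate 2. Without FLAG_IP replicate 1, the median log2 fold change of the 10 was -0.46, with 0.10 over all tested. Atrx was at 0.84, H3f3a at -1.35, H3f3b at -0.97, Asf1a at -0.67 and Asf1b at -0.88. Without FLAG_IP replicate 2, all 10 were below 0, with Atrx at -1.23 and H3f3b at -2.01. Their median was then -1.59, with 1.09 over all tested. In these fits the single pull-down library left is assumed to vary like the other groups. The share of repeats, the TMM factor and the level of Lsm1 RNA given above moved with this library, and their part in the result was not tested.

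**Figure D4:**
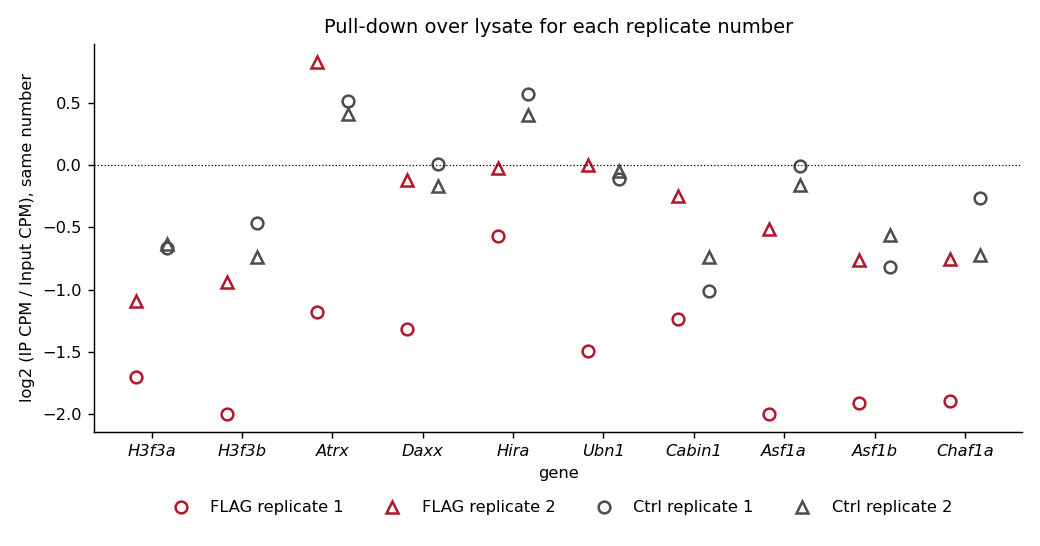
Log2 ratio of IP to Input TMM-scaled CPM for libraries of the same replicate number, with FLAG (red) left of Ctrl (grey), circles for replicate 1 and triangles for replicate 2. FLAG replicate 1 is lowest for all 10 genes, from -0.57 for Hira to -2.00 for H3f3b and Asf1a, and FLAG replicate 2 lies at 0.83 for Atrx and at or below 0 for the other 9.

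The control pull-down is titled IgG, while the RIP-seq methods of the study name only anti-FLAG beads. It was read as showing how these messages behave on those beads in lysate without tagged LSM1. None of the 10 was called in Ctrl_IP against Ctrl_Input by edgeR, where 2.13% of everything tested was called (2.12% higher, 0.00527% lower). None had an unadjusted p under 0.05 with edgeR, against 17% (16.3% higher, 0.733% lower). None was called by DESeq2, against 7.12% (7.08% higher, 0.0369% lower), and its unadjusted p was under 0.05 for 2 of the 10 (H3f3a and Cabin1, both lower), against 18%. H3f3a had 223 and 224 CPM in Ctrl_IP, against 355 and 348 CPM in Ctrl_Input. This gap was far larger than the spread of either pair, and the log2 fold change was -0.65 (SE 0.47, adjusted p = 0.57), with an SE that the 8 libraries share. H3f3b had 395 and 294 CPM in Ctrl_IP, against 545 and 491 CPM in Ctrl_Input (log2 fold change -0.59, SE 0.56). Cabin1 had 130.1 and 173 CPM in Ctrl_IP, against 262 and 288 CPM in Ctrl_Input, the lowest value of the 10 at a log2 fold change of -0.86. Asf1b had 49.4 and 53.0 CPM in Ctrl_IP, against 87.4 and 78.3 CPM in Ctrl_Input (log2 fold change -0.69).

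Atrx and Hira were above their lysate in both control pull-downs. Atrx had 1272 and 1337 CPM in Ctrl_IP, against 893 and 1008 CPM in Ctrl_Input, and Hira had 44.7 and 45.2 CPM, against 30.1 and 34.4 CPM. The log2 fold change was 0.46 for Atrx and 0.48 for Hira, with adjusted p of 0.85 and 0.53, and on the TPM scale it was -0.09 for Atrx and -0.06 for Hira. Over all genes 403 were called higher and 1 lower, in place of which limma on log2(TPM + 1) called 94 and 62. Of the 10 genes, 2 were apart and higher and 5 apart and lower, against 33.4% and 27.2% of everything tested. The median of the 10 was -0.29, with 0.12 over all tested. Fitted on the 4 control libraries alone, H3f3a, Cabin1 and Asf1b were called lower (adjusted p of 0.024, 0.020 and 0.025, edgeR). In that fit 2227 genes and repeats were called higher and 492 lower. Without FLAG_IP replicate 1 the median of the 10 was -0.34, with 0.07 over all tested. Without FLAG_IP replicate 2 it was -0.28, with 0.13 over all tested.

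The last comparison set the ratio of FLAG_IP to FLAG_Input over the ratio of Ctrl_IP to Ctrl_Input, the test of whether tagged LSM1 changed the pull-down of these messages. No gene or repeat of the 18972 was called by edgeR (0%), while 5.25% had an unadjusted p under 0.05 and DESeq2 called 2. These shares were 3.99% higher and 1.26% lower at the unadjusted p, and 0.0105% for DESeq2 (0.00527% in each direction), which had 5.52% at an unadjusted p under 0.05. None of the 10 genes was among any of these. Their log2 differences lay between -1.05 (Asf1a) and 0.20 (Cabin1), 9 were below 0, and every 95% interval included 0. The values were -0.76 for H3f3a (95% interval -2.21 to 0.70), -0.78 for H3f3b (-2.50 to 0.94), -0.28 for Atrx (-2.67 to 2.12) and -0.74 for Hira (-1.73 to 0.25). The 95% intervals, not adjusted for the number of tests, reached 0.99 to 2.39 log2 units to either side of the values. The lack of a call thus does not show that these genes were unchanged. Without FLAG_IP replicate 2, the median log2 difference of the 10 was -1.44, with 0.33 over all tested. Without FLAG_IP replicate 1 it was -0.11, with -0.11 over all tested, and Atrx was at 0.43.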

How the data were processed

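Mouse zygote RNA-seq and RIP-seq libraries were taken as labelled. Per the labels and the study's methods, the authors removed adapters and ran Salmon against an index of mm10 RefSeq transcripts together with Repbase elements (the labels name Trimmomatic and FastQC, the methods Cutadapt). The deposited estimated counts were not normalized, and the deposited TPM values were divided by effective length, which the file headers give, by Salmon. Of the 37366 transcripts, 37072 matched a symbol of GRCm38.p6, and counts were summed by symbol and rounded, giving 25091 genes and repeats. Counts were tested with edgeR 4.0.16 (R 4.3.3; TMM, filterByExpr, quasi-likelihood F test), the RNA-seq groups and the Inputs each alone and the pull-downs over all 8 RIP-seq libraries, and called at a Benjamini-Hochberg adjusted p under 0.05. CPM are scaled by the TMM factors, and intervals of log2 fold changes are 95% from the quasi-likelihood SE. DESeq2 1.42.0, limma 3.58.1 on log2(TPM + 1), RLE factors, no filter, a loess length offset, single transcripts, a replicate block and leaving out each library were alternatives. The named genes are all 10, Lsm1, and up to 4 called genes with the smallest adjusted p per comparison of a list of 26 other histone chaperone genes. The 10 genes and the lists were chosen with earlier results of these data known. The scripts were tested on simulated data. Near-copies were searched with blastn against GENCODE transcripts.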

Additional observations from a re-analysis of the deposited data

How the results depend on the processing

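Over the 10 genes, 710 log2 fold changes were computed under alternatives. Of these 597 kept their direction and their side of the threshold, 19 lost a call, 53 gained one and 41 changed sign. The cause of the changes was not tested. DESeq2 called 3 of the 10 and 1760 in all in Lsm1_KD against Ctrl, and 19 in all for the lysates. It called 5 of the 10 and 7609 in all for FLAG_IP, 1350 for Ctrl_IP and 2 for the ratio of ratios. Without a filter the counts were 3 of the 10 and 1957 in all for the knockdown and 2 for the lysates. They were 1 of the 10 and 6704 in all for FLAG_IP, 1614 for Ctrl_IP and 21 for the ratio. Hira was then at -0.0091 and Cabin1 at -0.0047 in the lysates. Limma on log2(TPM + 1) called 1 of the 10 and 1272 in all in the knockdown, and 134 in all for the lysates. It called 4 of the 10 and 2820 in all for FLAG_IP and 156 for Ctrl_IP. It gave -0.069 for Daxx and -0.037 for Asf1b in the knockdown, -0.055 for Hira, -0.051 for Cabin1 and -0.016 for Asf1b in the lysates, -0.10 for Atrx in FLAG_IP, and -0.085 for Atrx and -0.059 for Hira in Ctrl_IP. With the length trend taken out, 233 were called for Ctrl_IP and 1 for the ratio, Cabin1 was at -0.0010 in the lysates and Atrx at -0.24 in FLAG_IP. With single transcripts 0 were called in the knockdown (Daxx -0.33), 7 for FLAG_IP with 0 of the 10, and 6 for Ctrl_IP. Fitted with all 8 RIP-seq libraries, the lysates gave 0 calls and Hira -0.0025. Fitted on their own 4 libraries, FLAG_IP gave 0 of the 10 and 3695 in all, and Ctrl_IP 3 of the 10 and 2719 in all.

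The difference between the replicates of a group, taken in the order of their numbers on a log scale, was compared between groups. Over all features tested these differences, not the libraries themselves, correlated at -0.11 (Lsm1_KD with Ctrl) and 0.08 (lysates). The values were 0.13 for FLAG_IP with FLAG_Input and 0.09 for Ctrl_IP with Ctrl_Input. Whether a number marks a shared lysate is not stated. With a replicate block, 643 genes and repeats were called in the knockdown, 1454 for Ctrl_IP and 10 for the ratio. For FLAG_IP the block gave 1 of the 10 and 6051 in all, with Atrx at -0.18. A crossed replicate block in the knockdown, chosen after seeing the data, called 2616 of the 11335 genes and repeats and 6 of the 10.

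Leaving out 1 library at a time gave 663 to 1258 calls in the knockdown (0 to 1 of the 10), 2 to 1831 for the lysates (0 to 2), 477 to 13390 for FLAG_IP (0 to 10), 111 to 2900 for Ctrl_IP (0 to 4) and 0 to 6351 for the ratio (0 to 9). In the knockdown H3f3a ran over 0.27 to 0.85, Atrx over -0.89 to -0.41 and Asf1a over 0.056 to 1.01. Signs changed there for Daxx (-0.13 to 0.52) and Cabin1 (-0.84 to 0.19). In the lysates they changed for H3f3a (-0.10 to 0.29), H3f3b (-0.12 to 0.016), Hira (-0.10 to 0.11), Cabin1 (-0.066 to 0.088), Asf1a (-0.16 to 0.044) and Asf1b (-0.024 to 0.12). In FLAG_IP they changed for Atrx (-1.23 to 0.84), Daxx (-1.54 to 0.038), Hira (-0.67 to 0.027) and Ubn1 (-1.65 to 0.11), and in Ctrl_IP for Asf1a (-0.24 to 0.057), Daxx (-0.17 to 0.025) and Ubn1 (-0.27 to 0.089). In the ratio they changed for Atrx (-1.70 to 0.43), Daxx (-1.46 to 0.17), Ubn1 (-1.59 to 0.23) and Cabin1 (-0.36 to 0.60). With 2 libraries a group, the number of libraries limits every interval.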

Other observations

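Ratios between members of one complex or family are given here as values with no test. The TPM of Ubn1 was 37.4 and 26.2 times that of Hira in Lsm1_KD and 7.96 and 10.8 times in Ctrl, and the groups did not overlap. Cabin1 over Hira was 10.7 and 4.99 in Lsm1_KD and 2.63 and 6.22 in Ctrl, and these overlapped. The TPM of Atrx was 5.45 and 4.47 times that of Daxx in Lsm1_KD and 8.81 and 9.12 times in Ctrl, also without overlap. The ratio of Asf1b to Asf1a was 2.51 and 2.48 in Lsm1_KD and 2.19 and 4.29 in Ctrl, and these overlapped. In the lysates of the RIP-seq the Ubn1 to Hira ratio was 7.25 and 7.85 in FLAG_Input and 8.35 and 8.95 in Ctrl_Input.

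In the FLAG pull-down, Cdan1, whose human product binds ASF1, rose to 22.4 ± 5.91 CPM in FLAG_IP, against 9.36 ± 1.45 CPM in FLAG_Input (SD, n = 2 each, log2 fold change 1.26, adjusted p = 0.026 by edgeR). Npm3 fell to 8.91 ± 3.49 CPM in FLAG_IP, against 18.7 ± 1.95 CPM in FLAG_Input (log2 fold change -1.07, adjusted p = 0.046). These were the 2 called among the 26 other histone chaperone genes, and each lost its call in 9 of 16 alternatives. Without FLAG_IP replicate 1 the adjusted p was 0.051 for Cdan1 and 0.080 for Npm3.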
